A study of Mus musculus with 51 samples.

Results

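The 10 genes of branched-chain amino acid breakdown (Bcat2, Bckdha, Bckdhb, Dbt, Bckdk, Ivd, Mccc1, Mccc2, Hibch and Hibadh) were followed through fat cell formation in a mouse cell line. They were chosen by name and matched by symbol to the Ensembl identifiers of the count table. All 10 were found among its 53801 genes, and all 10 were among the 17015 genes with enough counts to be tested.

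Leucine, isoleucine and valine share their first steps of breakdown. A transaminase (Bcat2 in mitochondria, Bcat1 in the cytosol) removes the amino group, and the mitochondrial branched-chain keto acid dehydrogenase complex then commits the carbon skeleton to oxidation. Bckdha and Bckdhb encode the alpha and beta subunits of its decarboxylase, Dbt its transacylase core, and Bckdk the kinase that switches the complex off by phosphorylating the alpha subunit. Beyond the complex the routes part: Ivd (isovaleryl-CoA dehydrogenase), Mccc1 and Mccc2 (the subunits of methylcrotonyl-CoA carboxylase) act on leucine, and Hibch (hydroxyisobutyryl-CoA hydrolase) and Hibadh (hydroxyisobutyrate dehydrogenase) act on valine. Fat cells are known to raise this pathway as they mature and to use its products for lipid synthesis and for the citric acid cycle.

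RNA was counted in 51 libraries of C3H/10T1/2-SAM, a mouse mesenchymal line used as pre-adipocytes. All cells carried dCas9-VP64 and MS2-P65-HSF1, the parts of a system that raises transcription of a gene picked by a guide RNA. They received 250 ng of plasmid in total, which was an empty vector (EV), a plasmid with a guide for Pparg (P), or plasmids with guides for Pparg and for Ybx1 (PY). PPARG, a nuclear receptor, is the main driver of adipocyte formation, and YBX1 is a nucleic acid binding protein of the Y-box family. Every group was given 5 µM rosiglitazone, a drug that activates PPARG, 48 hours after transfection, and that point is day 0. RNA was taken on days 0, 2 and 4. In that order of days there were 5, 6 and 6 EV libraries, 5, 6 and 6 P libraries and 6, 5 and 6 PY libraries. Each library of a group came from another of 6 experiments with the same line, so p-values measure the spread between experiments and not between animals or lines.

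Total counts ran from 3381870 to 114566739 with a median of 22366559. Counts of the 10 genes in a library ran from 18 (Bckdha in PY day 2 replicate 3, the library of lowest total) to 5183. Levels are CPM, counts scaled to the effective library size, and comparisons between genes are per kb of exon. In the EV day 0 libraries Pparg stood at 51.5 ± 7.45 CPM (SD, n = 5) against 242 ± 92.0 in P (n = 5) and 262 ± 97.5 in PY (n = 6), and Ybx1 at 693 ± 125 in EV, 707 ± 99.3 in P and 2156 ± 604 in PY. Defining genes of macrophages (Ptprc), epithelium (Epcam), muscle (Myod1, Ckm) and hepatocytes (Alb) reached at most 7, 3, 3, 4 and 7 counts in a library. Some other markers of these lists were present at a low level, with at most 8.14 CPM for Cd68, 12.5 for Cd14 and 11.9 for Krt8, and at most 48.5 for Tek, an endothelial receptor. The fibroblast genes Col1a1 and Pdgfrb were high in every library, with at least 981 and 195 CPM, while Dlk1, a pre-adipocyte gene, reached at most 1.15 CPM. Acta1, an actin of muscle, reached 59.1 CPM.

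The RefSeq promoter table (GRCm38.p6) held windows from 250 bases before to 50 bases after a start site for 9 of the 10 genes, 11 windows in all. Dbt is named only. Each window was searched on both strands for the PPAR and RXR element (AGGNCA repeated in the same direction with 1 base between), the ERR element TNAAGGTCA, the nuclear receptor core site AGGTCA (which the ERR element contains), the NRF1 site (GCGCA and GCGC with 1 base between), the CCAAT box, whose inverted form is the Y-box that gave the YBX1 family its name, the C/EBP site TTGCNNAA and the GC box GGGCGG. The windows shown are those of Bckdhb, the gene that differed most between P and EV, of Ivd and Mccc2, which held several CCAAT boxes, and of Hibadh, the one with an NRF1 site. They are written 5′ to 3′ on the strand of the gene. Capitals mark CCAAT or its inverse ATTGG, and in Hibadh also the NRF1 match.
Bckdhb, chr9:83924887-83925186, plus strand: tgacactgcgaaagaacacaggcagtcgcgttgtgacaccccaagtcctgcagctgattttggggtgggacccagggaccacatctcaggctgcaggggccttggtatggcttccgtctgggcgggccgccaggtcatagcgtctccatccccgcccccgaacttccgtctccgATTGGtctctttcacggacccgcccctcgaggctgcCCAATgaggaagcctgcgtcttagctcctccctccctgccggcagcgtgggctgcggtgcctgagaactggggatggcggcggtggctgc
Ivd, chr2:118861744-118862043, plus strand: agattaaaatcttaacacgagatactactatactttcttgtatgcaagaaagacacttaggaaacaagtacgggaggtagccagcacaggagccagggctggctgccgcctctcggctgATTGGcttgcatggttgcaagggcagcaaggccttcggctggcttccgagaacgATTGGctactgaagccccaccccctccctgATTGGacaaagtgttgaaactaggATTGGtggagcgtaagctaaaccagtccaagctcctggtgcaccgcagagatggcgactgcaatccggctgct
Mccc2, chr13:100015590-100015889, minus strand: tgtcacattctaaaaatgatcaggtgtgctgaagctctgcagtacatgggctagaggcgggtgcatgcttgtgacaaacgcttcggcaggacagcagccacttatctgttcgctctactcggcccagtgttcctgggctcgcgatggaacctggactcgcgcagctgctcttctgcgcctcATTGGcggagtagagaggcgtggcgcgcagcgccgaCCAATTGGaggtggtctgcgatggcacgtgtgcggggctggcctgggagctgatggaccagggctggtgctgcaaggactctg
Hibadh, chr6:52640251-52640550, minus strand: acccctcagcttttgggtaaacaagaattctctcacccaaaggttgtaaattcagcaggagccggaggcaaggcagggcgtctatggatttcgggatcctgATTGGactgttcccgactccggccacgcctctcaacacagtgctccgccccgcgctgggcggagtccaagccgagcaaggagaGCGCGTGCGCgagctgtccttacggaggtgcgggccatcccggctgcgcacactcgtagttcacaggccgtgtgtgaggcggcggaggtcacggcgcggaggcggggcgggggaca
The CCAAT box was present in 7 of the 11 windows, of 6 of the 9 genes, and in 37.4% of the 32851 windows of the table. Ivd held 4 copies, 131, 77, 47 and 23 bases before the start, all in the inverse form. Mccc2 held 3, and its last pair, 33 and 30 bases before the start, overlap each other. Mccc1 also held 3, Bckdhb, Hibadh and Bckdk held at least 1, and Bcat2, Bckdha and Hibch had none in these windows. The NRF1 match of Hibadh, on the opposite strand, lay 66 bases before the start, against 4.6% of all windows with such a site. AGGTCA was found in Bckdhb, 119 bases before the start, and in Hibadh, 20 bases after it, and in 16.3% of all windows. The full PPAR and RXR element, in 0.381% of all windows, the ERR element, in 1.28%, and the C/EBP site, in 10.8%, had no match in the 11 windows. GC boxes were present in 4 of them, beside 35.7% of all windows. These are matches of letters, and binding was not measured.

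In EV on day 0 the order began with Bckdk at 10.8 ± 0.753 CPM per kb (SD, n = 5), Dbt at 9.35 ± 1.46 and Bckdhb at 7.69 ± 2.48, and ended with Hibch at 3.17 ± 0.651 and Mccc1 at 1.0 ± 0.218. Each gene differed from the next in this order by less than the sum of their SDs except Mccc1, which was below Hibch by more than that. Mccc1 was last in all 9 groups by CPM per kb. In plain CPM it stood above Bckdha in EV on day 0, at 10.95 against 9.54. Lengths are of all annotated exons of a gene merged, 10952 bases in Mccc1 and 10179 in Hibadh against 1805 in Bckdhb. The length of the RNA in these cells was not measured, so the order per kb depends on the annotation. By day 4 the order had changed in EV, P and PY. Bckdhb led at 39.9 ± 17.2 CPM per kb in P (n = 6) and 47.7 ± 20.9 in PY (n = 6), apart by the same measure from Bcat2 in the next place at 16.3 ± 5.41 and 18.1 ± 7.74, while Bckdk, first at day 0, stood at 15.2 ± 3.30 and 15.5 ± 2.95. In EV on day 4 Bckdhb and Bckdk, at 12.8 ± 1.54 and 12.7 ± 3.79, were within 1 SD of each other. The sum of the 10 genes was 221 ± 30.5 CPM in EV on day 0 and 273 ± 22.5 on day 4. In P it went from 219 ± 33.1 to 516 ± 128, and in PY from 223 ± 20.2 to 575 ± 161.

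**Figure D1:**
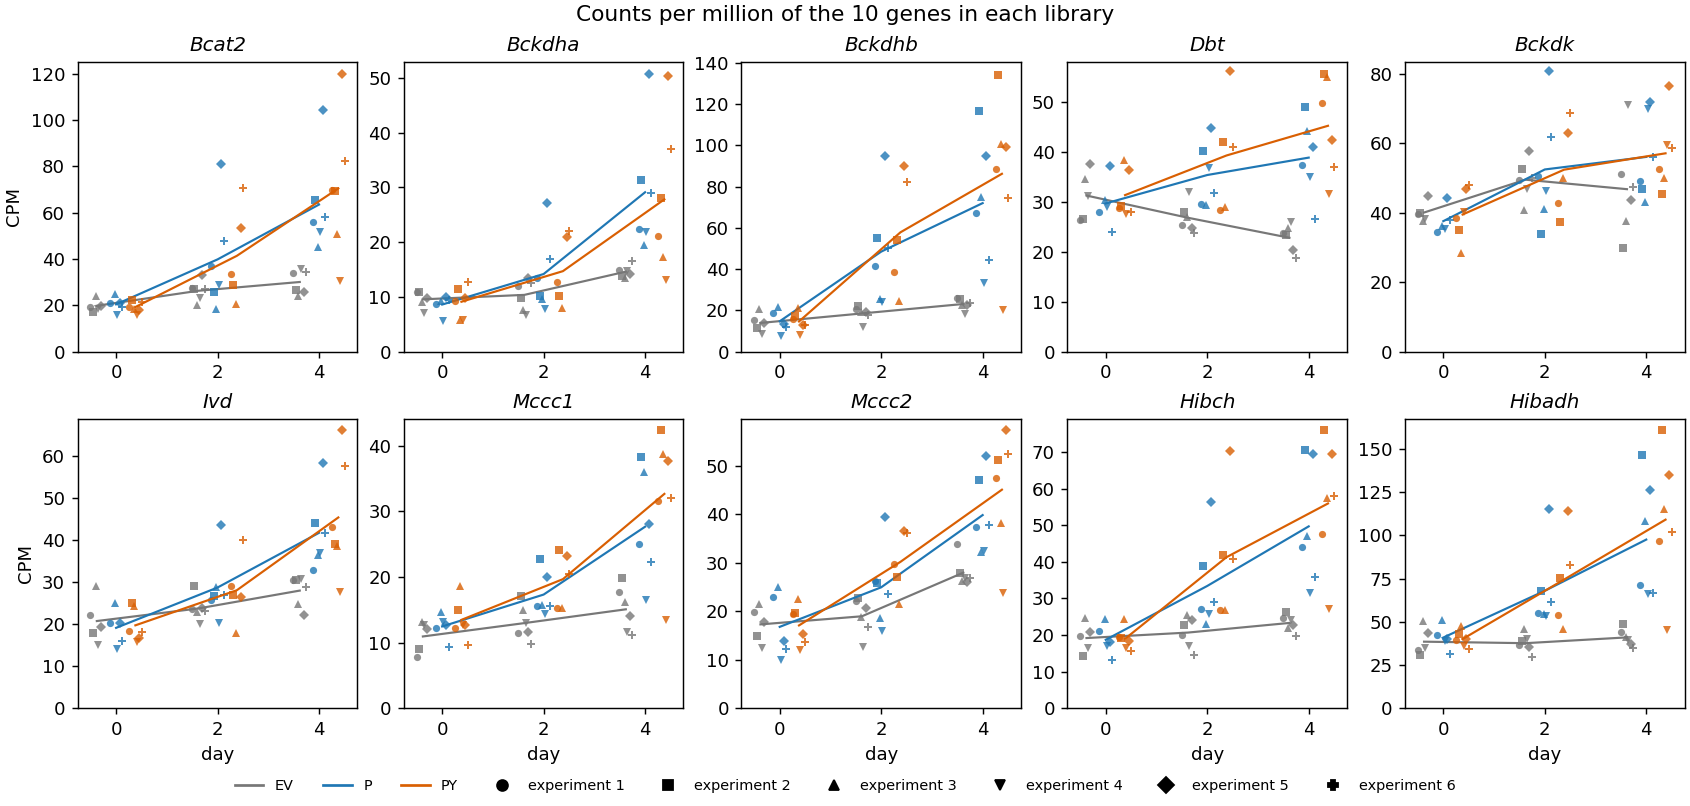
Level of each of the 10 genes (CPM, linear axis from 0) against the day of differentiation, with one point per library, marker shape for the experiment, and lines through the group means of EV (grey), P (blue) and PY (orange), shifted sideways so that they do not hide each other. Groups overlap on day 0 in every panel, and on day 4 the P libraries stand above all EV libraries in 7 panels and not in Bckdk, Mccc1 and Mccc2. The highest P and PY points of Bcat2 and Bckdha on day 4 are from experiment 5.

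On day 4 of differentiation, 7 of the 10 genes were higher with the Pparg guide than with the empty vector (edgeR's quasi-likelihood test with Benjamini-Hochberg adjustment over all 17015 genes, adjusted p under 0.05). None was lower. Among all genes tested 5.38% were called in this comparison, 5.18% as higher. The median of the 10 log2 differences was 0.93, and that of all genes -0.06. The 10 genes ran from 0.26 in Bckdk to 1.64 in Bckdhb. In 7 of the 10 every P library stood above every EV library, which was so for 3% of all genes.

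Bcat2, the mitochondrial transaminase, ran from 23.95 to 35.7 CPM in EV on day 4 with a median of 30.2, and from 45.4 to 104 in P with a median of 56.9. The groups did not overlap, and the highest P library, replicate 5 of experiment 5, stood well above the others. The difference was 2.11-fold (95% interval 1.47 to 3.04, adjusted p = 0.00523).

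In the dehydrogenase complex the beta subunit moved most. Bckdhb ran from 18.4 to 25.9 CPM in EV (median 23.0) and from 33.4 to 117 in P (median 71.1). All P libraries were above all EV libraries, with the lowest in experiment 4 and the highest in experiment 2, and the difference was 3.12-fold (1.96 to 4.96, adjusted p = 0.000604). The alpha subunit Bckdha ran from 13.5 to 16.6 CPM in EV (median 14.4) and from 19.5 to 50.6 in P (median 25.6), again without overlap. Its difference was 1.99-fold (1.35 to 2.94, adjusted p = 0.0202). Without P day 4 replicate 5, the library with 50.6 CPM, it was 0.78 on the log2 scale with an adjusted p of 0.116, so the call was lost without that library. It was also lost without experiment 1, 2 or 5, at adjusted p of 0.0599, 0.1198 and 0.1229. Bckdha still passed when experiment was added to the fit as a block. Dbt, the transacylase, ran from 18.7 to 25.9 CPM in EV (median 23.6) and from 26.7 to 49.1 in P (median 39.2). Here too the groups stood apart, by a small gap, and the difference was 1.70-fold (1.38 to 2.11, adjusted p = 0.000393).

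Bckdk, the kinase, was the one gene of the complex that did not pass. It ran from 29.9 to 70.9 CPM in EV (median 45.6) and from 43.0 to 71.9 in P (median 52.5). The P libraries lay within the EV range but for the highest, and the library of experiment 4 was first in EV and next to first in P. The fitted difference was 1.2-fold (0.942 to 1.53), and the adjusted p was 0.612. It was positive in 4 of 6 experiments, where the other 9 genes were positive in 6 of 6.

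Of the leucine genes, Mccc1 ran from 11.1 to 19.9 CPM in EV (median 15.1) and from 16.5 to 38.2 in P (median 26.6), with the P library of experiment 4 inside the EV range. It was 1.83-fold higher (1.38 to 2.43, adjusted p = 0.00342). Ivd ran from 22.3 to 30.8 CPM in EV (median 29.7) and from 32.8 to 58.2 in P (median 39.4). Its groups did not overlap, yet its difference of 1.49-fold (1.15 to 1.93) did not pass, with an adjusted p of 0.0539. Mccc2 ran from 26.0 to 33.9 CPM in EV (median 26.9) and from 32.3 to 52.0 in P (median 37.6), with 1 EV library inside the P range, and its 1.42-fold difference (1.07 to 1.90) had an adjusted p of 0.206. Both passed when experiment was added to the fit as a block, at adjusted p of 0.0237 for Ivd and 0.0422 for Mccc2, which makes 9 of 10 genes called where 10.1% of all genes were. Ivd also passed when P replicate 1, P replicate 4, EV replicate 2 or EV replicate 4 of day 4 was left out, with adjusted p of 0.0240, 0.0386, 0.0464 and 0.0442.

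Both valine genes were higher. Hibch ran from 19.9 to 26.4 CPM in EV (median 23.4) and from 31.4 to 70.4 in P (median 45.4), 2.13-fold (1.56 to 2.91, adjusted p = 0.000745). Hibadh ran from 34.7 to 48.9 CPM in EV (median 40.4) and from 66.3 to 146.5 in P (median 89.9), 2.38-fold (1.75 to 3.23, adjusted p = 8.18e-05). In both genes the P libraries of experiments 2 and 5 were the highest, and every P library was above every EV library.

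The fat cell markers were also higher in P than in EV on day 4. The summed level of Fabp4, Adipoq, Plin1, Cidec, Cebpa and Lipe was 38.3 to 295 CPM in EV on day 4 and 2373 to 8699 in P, and 6 of the 6 were called higher. Over days 0, 2 and 4 their median log2 difference was 1.94, 5.86 and 5.61, beside -0.03, 0.44 and 0.93 for the 10 genes. The 6 fibroblast and pre-adipocyte markers summed to 5439 to 12620 CPM in EV and 4641 to 9999 in P, with none called. All 6 of their log2 differences were negative, with a median of -0.44 beside -0.06 over all genes, and with the experiment block Col1a1 (adjusted p = 0.00702) and Thy1 (adjusted p = 0.0442), named after their values were seen, were called lower. In bulk RNA more fat cells in the dish and more RNA of these genes per fat cell cannot be told apart.

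On day 2 fewer genes were called. All 10 log2 differences between P and EV were positive, as were 45.6% of all, with a median of 0.44 against -0.02 over all genes, and 2 genes were called higher, Bckdhb and Hibadh, where 2.84% of all genes were called. Bckdhb ran from 12.04 to 22.1 CPM in EV (median 19.2) and from 24 to 94.6 in P (median 45.8), 2.62-fold (1.65 to 4.17, adjusted p = 0.00784). Hibadh ran from 29.4 to 45.8 CPM in EV (median 37.8) and from 53.2 to 115 in P (median 58.1), 1.81-fold (1.33 to 2.45, adjusted p = 0.0156). These were the 2 of 10 genes whose groups did not overlap, beside 2.17% of all genes. Both highest values were in P replicate 5 of experiment 5, which also held the most fat cell marker RNA of the P day 2 libraries, 7913 CPM against 1629 to 4358 in the others. Without it neither gene passed: Bckdhb was 1.10 on the log2 scale (adjusted p = 0.0887) and Hibadh 0.64 (adjusted p = 0.162). Hibadh was also lost without EV day 2 replicate 6 (0.78, adjusted p = 0.0695). Hibch, at 0.69 (adjusted p = 0.0938), passed with the experiment block (adjusted p = 0.0157) and without P day 2 replicate 3 (adjusted p = 0.0471).

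On day 0 no gene of the 10 was called between P and EV by edgeR or by DESeq2, and none had an unadjusted p under 0.05. The log2 differences ran from -0.16 to 0.20 with a median of -0.03. Among all genes 0.00588% were called, which is 1 gene. Whether the difference between P and EV itself grew from day 0 to day 4 was tested as an interaction. All 10 changes were positive, beside 41.3% of all genes, from 0.36 to 1.54 on the log2 scale with a median of 0.94, against -0.06 over all genes. No gene of the 10 passed, while 8 had an unadjusted p under 0.05, beside 6.05% of all genes, and 0.288% of all genes were called. With the experiment block Bckdha, Bckdhb, Dbt and Hibadh passed, at adjusted p of 0.0213, 0.0490, 0.0361 and 0.0488, where 1.32% of all genes were called. From day 0 to day 2 no gene passed (4 had an unadjusted p under 0.05, beside 3.2% of all genes, and 0.0588% of all genes were called), nor from day 2 to day 4 (none with an unadjusted p under 0.05, and 0% of all genes called).

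Adding the Ybx1 guide to the Pparg guide gave no called difference in any of the 10 genes on any day, by edgeR or by DESeq2, and none had an unadjusted p under 0.05. Among all genes 0.0294%, 0.0118% and 0.0176% were called on days 0, 2 and 4. On day 4 the log2 differences between PY and P ran from -0.07 to 0.26, positive in 9 genes and in 53.8% of all, with a median of 0.16 beside 0.01 over all genes. For Bckdhb the estimate was 1.2-fold (95% interval 0.761 to 1.88), for Bcat2 1.11-fold (0.774 to 1.59), for Dbt 1.16-fold (0.943 to 1.43) and for Bckdk 1.02-fold (0.801 to 1.30). None of the 10 intervals on day 4 reached 2-fold. The sign of the difference in Bcat2, Bckdha, Bckdk and Ivd turned when single libraries were left out, in Bckdha from -0.07 to 0.16 without P day 4 replicate 5 and in Bcat2 from 0.15 to -0.06 without PY day 4 replicate 5. On day 2 the log2 differences ran from -0.02 to 0.32 with a median of 0.15, and on day 0 from -0.08 to 0.10 with a median of 0.03. Nor did any of the 10 genes pass for a shift in the PY against P contrast between day 0 and either later day (none with an unadjusted p under 0.05, and 0% of all genes called in either).

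PY day 4 replicate 4, of experiment 4, stood apart in this group. Its sum of the 10 genes was 293 CPM, where the other PY day 4 libraries held 548 to 754, and its fat cell markers summed to 1223 CPM against 5882 to 10280. Leaving it out gave 9 genes called between PY and EV, as many as with it.

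Against the empty vector, whose libraries also served the comparison with P, 9 of 10 genes were called higher in PY on day 4 and none lower, where 7.83% of all genes were called. Bckdhb ran from 20.4 to 134 CPM in PY (median 93.8), 3.73-fold the EV level (2.33 to 5.95, adjusted p = 5.42e-05), with replicate 4 inside the EV range. Dbt ran from 31.6 to 55.7 (median 46.2), 1.98-fold (1.60 to 2.45, adjusted p = 6.49e-06), above every EV library. Hibadh was 2.66-fold (1.95 to 3.61), Hibch 2.39-fold (1.75 to 3.28), Bcat2 2.34-fold (1.63 to 3.38) and Mccc1 2.16-fold (1.62 to 2.87). The others called were Ivd at 1.62-fold (1.25 to 2.10), Mccc2 at 1.61-fold (1.204 to 2.15) and Bckdha at 1.90-fold (1.29 to 2.81). Bckdk was 1.22-fold (0.960 to 1.56) with an adjusted p of 0.428. Groups stood apart in Dbt and Hibch, 2 of 10, beside 2.47% of all genes.

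The calls with the highest adjusted p, Mccc2 and Bckdha, were lost when single libraries were left out. With the experiment block and all libraries they had adjusted p of 0.00397 and 0.00121. Both were also lost without experiment 1, 2, 5 or 6. The adjusted p were then 0.0545 to 0.141 for Mccc2 and 0.0673 to 0.161 for Bckdha. With the compared groups alone Bckdha was lost as well (adjusted p = 0.0546). The Ivd call was lost without experiment 5 (adjusted p = 0.111) or 6 (adjusted p = 0.0517). Fits without an experiment gave 6 to 9 called genes. Bckdha, at an adjusted p of 0.0270, was lost without PY replicate 5 (0.71 on the log2 scale, adjusted p = 0.148), PY replicate 6 (0.83, 0.0711 adjusted) or EV replicate 3 (0.91, 0.0531 adjusted). Mccc2, at an adjusted p of 0.0287, was lost without any of PY replicates 2, 5 and 6 or EV replicates 3, 5 and 6, with log2 differences of 0.64 to 0.68, beside 0.69 with all libraries, and adjusted p of 0.0536 to 0.0718.

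On day 2, 4 genes were called between PY and EV, where 4.74% of all genes were. Bckdhb was 3.16-fold (1.95 to 5.12, adjusted p = 0.00109), Hibch 2.02-fold (1.45 to 2.79, adjusted p = 0.00392), Hibadh 1.99-fold (1.45 to 2.73, adjusted p = 0.00342) and Dbt 1.48-fold (1.18 to 1.84, adjusted p = 0.0252). In the first 3 of these genes every PY library was above every EV library, beside 2.59% of all genes. Without PY replicate 4, which is of experiment 5 and held 8751 CPM of fat cell marker RNA, only Bckdhb passed, and Hibch (0.73, adjusted p = 0.0966), Hibadh (0.79, adjusted p = 0.0584) and Dbt (0.40, adjusted p = 0.276) did not. Dbt was also lost without PY replicate 2 or 5 or EV replicate 1, 5 or 6, at adjusted p of 0.0539 to 0.0739. Mccc1 and Mccc2, at 0.61 and 0.68 on the log2 scale, passed with the experiment block (adjusted p of 0.0192 and 0.0146). Mccc2 also passed without EV replicate 2 (adjusted p = 0.0481) or PY replicate 3 (adjusted p = 0.0338). On day 0 no gene was called (none with an unadjusted p under 0.05, none by DESeq2, and 0.047% of all genes called), with log2 differences of -0.07 to 0.29.

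**Figure D2:**
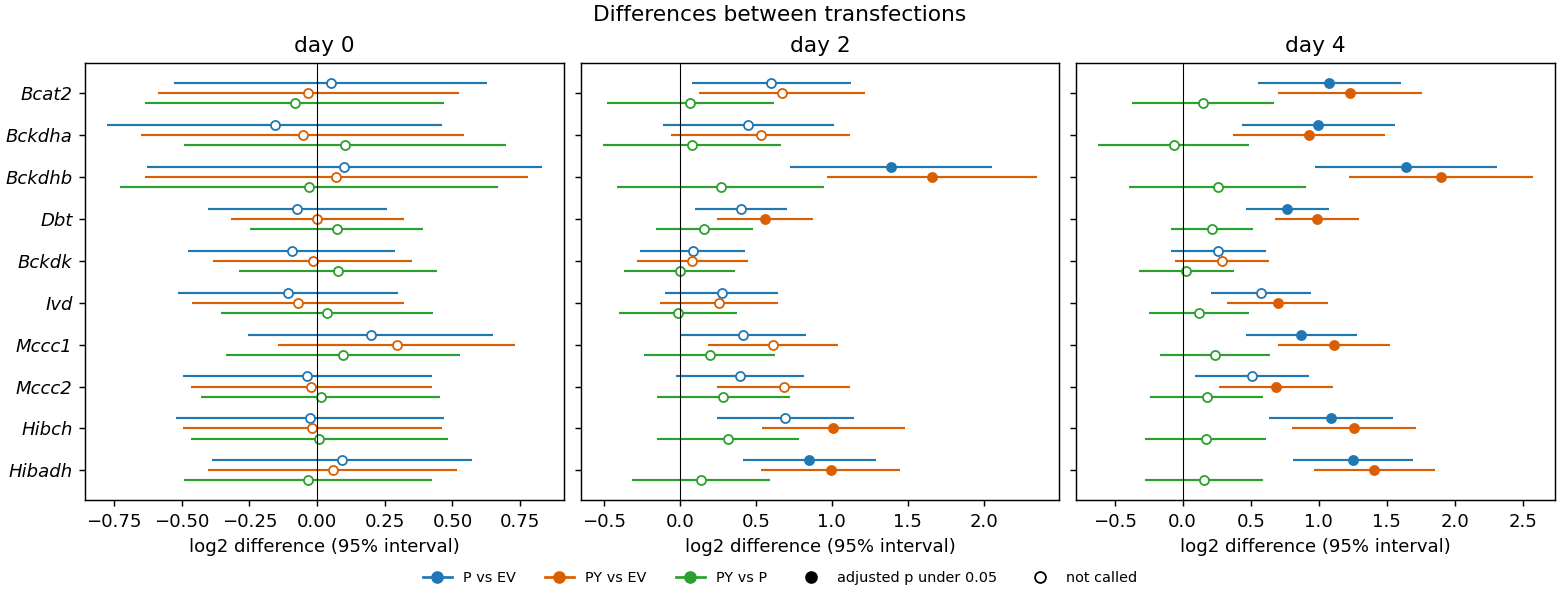
Fitted log2 differences of the 10 genes between P and EV (blue), PY and EV (orange) and PY and P (green) on days 0, 2 and 4, with bars for the 95% interval and filled points where the adjusted p is under 0.05. Filled points appear on day 2 for 2 genes (P vs EV) and 4 genes (PY vs EV) and on day 4 for 7 and 9, and none is green.

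In EV 9 of the 10 log2 differences between day 4 and day 0 were positive, beside 51.7% of all genes, with a median of 0.46 beside 0.02 over all genes, and 2 were called, 1 in each direction, where 30% of all genes were called and 14.9% as lower. Groups also stood apart in Bckdha (higher, 1.53-fold, adjusted p = 0.113), which makes 2 of 10 higher and 1 lower without overlap, beside 6.41% and 6.32% of all genes. Mccc2 stood at 12.4, 14.8, 17.9, 19.9 and 21.5 CPM on day 0 and at 26.0 to 33.9 on day 4 (median 26.9), without overlap, 1.62-fold higher (1.19 to 2.21, adjusted p = 0.0142). Dbt moved the other way, from 26.5, 26.7, 31.2, 34.6 and 37.6 CPM to 18.7 to 25.9 (median 23.6), 0.730-fold the day 0 level (0.586 to 0.910, adjusted p = 0.0257), also without overlap. Mccc2 was lost without EV day 0 replicate 4 (0.60, adjusted p = 0.0624), and Dbt without EV day 0 replicate 3 (-0.42, adjusted p = 0.0523), EV day 0 replicate 5 (-0.38, adjusted p = 0.0987) or EV day 4 replicate 6 (-0.40, adjusted p = 0.0662). Without EV day 0 replicate 3 Ivd passed (0.58, adjusted p = 0.0248). With the experiment block 7 genes were called, Bcat2, Bckdha, Bckdhb, Ivd, Mccc1 and Mccc2 as higher and Dbt as lower, beside 44.7% of all genes. The summed fat cell markers in EV were 11.6 to 23.0 CPM on day 0 and 38.3 to 295 on day 4. Between days 0 and 2 no gene of the 10 was called in EV (none with an unadjusted p under 0.05, none by DESeq2), where 7.29% of all genes were.

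In P all 10 genes were called higher on day 4 than on day 0, where 37.3% of all genes were called, 18.7% as higher and 18.6% as lower. The largest were Bckdhb at 4.90-fold (2.95 to 8.14, adjusted p = 4.91e-06) and Bckdha at 3.40-fold (2.22 to 5.19, adjusted p = 1.58e-05). Bckdk rose 1.49-fold (1.16 to 1.93, adjusted p = 0.0109) and Dbt 1.31-fold (1.05 to 1.63, adjusted p = 0.0488). The Dbt call in P was lost without any of replicates 1, 2, 3 and 5 of day 0 or replicates 1, 2, 3 and 5 of day 4, at adjusted p of 0.0571 to 0.140. It was also lost with no filter (adjusted p = 0.160) and with the compared groups alone (adjusted p = 0.0798). Without experiment 1, 2, 3, 4 or 6 it was lost at adjusted p of 0.0577 to 0.156. The Bckdk call in P was lost without experiment 4 (adjusted p = 0.0541). In PY all 10 were called higher on day 4 as well, where 37.5% of all genes were called and 17.8% as lower, from 1.44-fold in Bckdk (1.13 to 1.84) and 1.45-fold in Dbt (1.17 to 1.79) to 5.98-fold in Bckdhb (3.68 to 9.70). By day 2 the genes called higher than on day 0 were Bcat2, Bckdhb, Ivd, Hibch and Hibadh in P, where 14% of all genes were called, and Bcat2, Bckdhb, Ivd, Mccc1, Mccc2, Hibch and Hibadh in PY, where 22.8% were. With the experiment block these counts were 8 and 10, beside 28.6% and 35.6% of all genes. In P on day 2 the count was 1 without P day 2 replicate 5 and 8 without P day 2 replicate 4. Ivd and Hibadh were lost in P also without P day 0 replicate 3, 4 or 5, at adjusted p of 0.0576 to 0.124. In PY the Ivd and Mccc1 calls were each lost without any of 8 libraries, at adjusted p of 0.0503 to 0.187.

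The kinase acts on the alpha subunit, so the ratio of their counts within a library was compared. It does not depend on library scaling. It is a ratio of RNA, and the activity of the kinase was not measured. Its denominator is uncertain because exons of Bckdha overlap those of B3gnt8 on the other strand. On day 4 the ratio of Bckdk to Bckdha was 2.17 to 4.82 in EV (median 2.97), 1.42 to 3.19 in P (median 2.07) and 1.52 to 4.55 in PY (median 2.06). The groups overlapped, with the highest value of each in experiment 4. The P to EV difference was 0.644-fold (exact permutation test, two-sided, p = 0.0303, adjusted over 6 comparisons 0.182), so it did not pass. Within experiments the ratio was lower in P in 6 of 6 (exact sign-flip permutation test p = 0.03125, the smallest that 6 pairs allow, adjusted 0.0938). With so few pairs in each of the 6 comparisons, no outcome of the sign-flip test could reach an adjusted p under 0.05. On day 2 the P to EV difference was 0.794-fold (exact permutation test p = 0.117, adjusted 0.351), lower in 6 of 6 experiments (exact sign-flip permutation test p = 0.03125, adjusted 0.0938). On day 0 the mean ratio was 4.29 ± 0.739 in EV (n = 5), 4.52 ± 1.002 in P (n = 5) and 4.61 ± 1.32 in PY (n = 6), and the PY to P differences had adjusted p of 0.951 to 0.976 in the same exact permutation test on the 3 days.

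**Figure D3:**
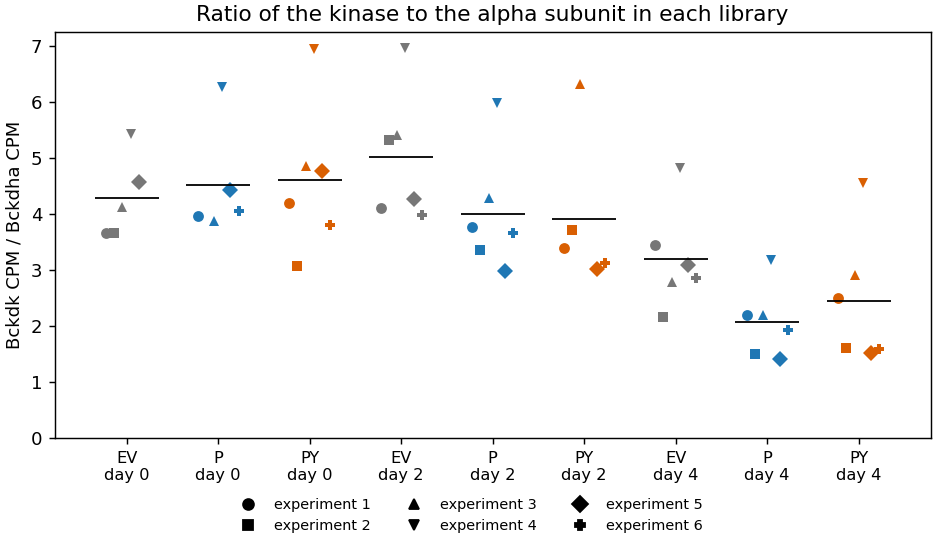
Ratio of Bckdk to Bckdha CPM in each library (linear axis from 0), by transfection and day, with marker shape for the experiment and a bar at the group mean. Group means on day 4 (3.19 in EV, 2.07 in P, 2.44 in PY) lie below those on day 0, and the groups overlap on every day.

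The 10 genes did not vary alike. Over the 51 libraries the Pearson correlation of a gene's log2 CPM with the mean of the other 9 was 0.958 in Hibch, 0.952 in Bckdhb and 0.939 in Bcat2, and lowest in Dbt (0.654) and Bckdk (0.549). After the group means were taken out, the median correlation over the 45 pairs was 0.612. Hibch and Hibadh varied together most (0.935), Bcat2 with Bckdha at 0.871, and Bckdk with Mccc1 least (-0.345). These values are a description over libraries that share groups, experiments and cells.

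Part of that shared variation followed the experiment. The libraries of experiment 5 lay 0.264 above their group means on average over the 10 genes (log2), and those of experiment 4 lay 0.325 below. The other experiments lay between -0.04 and 0.09. Experiment accounted for 63% of the spread within groups in Bckdha and 23.3% in Ivd, the highest and lowest of the 10. Libraries far above their group were P day 2 replicate 5 at 0.767, with 10 of 10 genes above the group mean, and PY day 2 replicate 4 at 0.484, both of experiment 5. Libraries far below were PY day 4 replicate 4 at -0.915 and PY day 2 replicate 3 at -0.568. The same libraries had the highest and among the lowest fat cell marker sums of their groups, 7913 and 8751 CPM in the first pair and 1223 and 2161 in the second. Other groups differed in this. The library of highest marker sum lay below its group mean in EV day 0 (-0.2143), EV day 2 (-0.2063), P day 0 (-0.2235) and PY day 0 (-0.0594). On day 4 it lay above in EV (0.0382), P (0.3353) and PY (0.2826). The part of the fat cell share in these deviations was not tested.

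**Figure D4:**
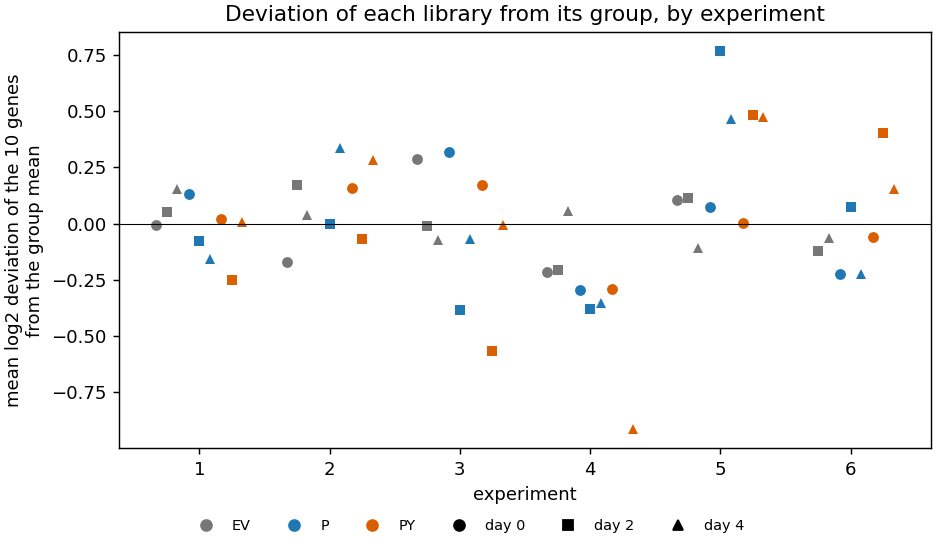
Mean log2 deviation of the 10 genes from the group mean in each library, by experiment, with colour for the transfection and marker shape for the day. Experiment 4 holds 1 value above 0 and goes down to -0.915 in PY day 4, and experiment 5 holds 1 value below 0 and goes up to 0.767 in P day 2.

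Of 18 further genes of the same pathway 5 were called higher in P than in EV on day 4, none lower, with a median log2 difference of 0.41. Among all genes 5.18% were called higher. They were Aldh6a1, which handles methylmalonate semialdehyde from valine, at 3.51-fold (2.12 to 5.82), Echs1, the enoyl-CoA hydratase, at 2.13-fold (1.45 to 3.12), Dld, the dehydrogenase shared by all keto acid complexes, at 1.96-fold (1.48 to 2.61), Acat1, the mitochondrial acetoacetyl-CoA thiolase, at 1.67-fold (1.25 to 2.22), and Mmut, methylmalonyl-CoA mutase, at 1.495-fold and named here after its value was seen. Aldh6a1 went from 61.3 CPM in EV to 215 in P and 252 in PY on day 4. Ppm1k, the phosphatase that opposes Bckdk, stood at 25.9 CPM in EV and 29.5 in P, 1.14-fold (0.791 to 1.64, adjusted p = 0.865). The cytosolic transaminase Bcat1 was 0.754-fold (0.293 to 1.94, adjusted p = 0.891) between P and EV on day 4.

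Of 6 genes of branched-chain amino acid transport and control 5 had enough counts, and none was called between P and EV on day 4 by edgeR. Slc25a44, the mitochondrial carrier of these amino acids, was 1.38-fold (adjusted p = 0.0662, and 0.00669 with the experiment block). Klf15, a transcription factor known to act on this pathway in muscle, was 2.33-fold at 1.34 CPM in EV and 3.14 in P (adjusted p = 0.188, and 0.0176 with the block). Both were called in PY against EV, at 1.43-fold and 3.003-fold (adjusted p of 0.0250 and 0.0314).

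In P against EV on day 4, 8 of 12 genes of the sister dehydrogenase complexes, 13 of 14 of the citric acid cycle and 13 of 18 of fatty acid oxidation were called higher, with none lower in the 3 lists. Among all genes 5.18% were called higher. The median log2 differences of the 3 lists, 0.79, 0.81 and 1.25, lie beside 0.93 for the 10 genes and -0.06 over all genes. Pdhb, Pdhx, Pdp2 and Dlat of the pyruvate dehydrogenase complex were 2.36-fold, 1.78-fold, 2.15-fold and 2.35-fold. Pdk4, a kinase of that complex, was 1.72-fold (adjusted p = 0.407) in P and 2.51-fold (adjusted p = 0.0268) in PY against EV. Idh3b, Suclg1 and Mdh2 of the citric acid cycle were 2.23-fold, 1.84-fold and 1.80-fold. Cpt2, Decr1, Acads and Acadvl of fatty acid oxidation were 2.92-fold, 3.04-fold, 2.55-fold and 3.34-fold. Outside the 10, the genes whose log2 CPM followed their mean most closely over the 51 libraries were Mdh1 (r = 0.981), Scp2 (0.980), Marc2 (0.977), Echs1 (0.976) and Acad11 (0.971), as a description.

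The genes lie on GRCm38 at chromosome 7, 45570153 to 45589711 (Bcat2, ENSMUSG00000030826), 25629946 to 25658981 (Bckdha, ENSMUSG00000060376) and 127904082 to 127910221 (Bckdk, ENSMUSG00000030802), chromosome 9, 83925145 to 84124240 (Bckdhb, ENSMUSG00000032263), chromosome 3, 116513070 to 116549981 (Dbt, ENSMUSG00000000340) and 35959312 to 36000678 (Mccc1, ENSMUSG00000027709), chromosome 2, 118861954 to 118882909 (Ivd, ENSMUSG00000027332), chromosome 13, 99948530 to 100015639 (Mccc2, ENSMUSG00000021646), chromosome 1, 52844929 to 52920986 (Hibch, ENSMUSG00000041426) and chromosome 6, 52546228 to 52640389 (Hibadh, ENSMUSG00000029776). All are protein-coding, and counts are over their exons. Exons of Bckdha overlap those of B3gnt8 on the other strand by 1171 of their 1899 bases, which is most of the gene. B3gnt8 held at most 138 counts in a library. Exons of Bcat2 overlap an antisense gene, 0610005C13Rik, by 622 bases, and those of Mccc1 overlap Gm15952, Mccc1os and B230207O21Rik by 94, 198 and 321 bases, none of which held more than 54 counts. The strand setting of the counting is not given in the sources used here, so values of Bckdha, Bcat2 and Mccc1 are uncertain to that extent. Processed copies of Hibadh (Gm11225, 91.7% identical over 855 bases) and Hibch (Gm7512, 92.6% over 1124 bases) held at most 1 count.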

How the data were processed

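Stranded total RNA depleted of ribosomal RNA was sequenced, per the labels' protocols, and the authors deposited 1 table of raw counts per Ensembl gene for 51 libraries. STAR 2.5.3a, featureCounts 1.5.2 and edgeR 3.22.0 and the mouse build mm10 are named in the submitters' processing notes, and the strand setting is not given in the sources used here. Libraries were grouped by transfection and day from their labels. From the deposited counts, edgeR 4.0.16 with limma 3.58.1 in R 4.3.3 fitted all libraries with 1 mean per group, after filterByExpr and TMM scaling, and quasi-likelihood tests were adjusted by Benjamini-Hochberg over 17015 genes. A gene was called at an adjusted p under 0.05. The 10 genes are named throughout. From each other list up to 4 genes with the smallest p between P and EV on day 4 are named, with Bcat1, Ppm1k, Klf15, Slc25a44 and Pdk4 whatever their values, and so are the 5 genes outside the list that correlate best with the mean of the 10. A gene that this rule names in the citric acid cycle list is not reported here. The 10 genes, the lists and the comparisons were chosen with earlier results of these data known.

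Totals ran from 3381870 to 114566739 counts, and the lower ones limit precision most for Bckdha. Counts were simulated for all 51 libraries from the mean of each gene over all libraries, without group or experiment effects. In P day 4, 67, 67 and 66 genes were then changed 1.5-fold, 2-fold and 3-fold. Between P and EV of day 4, 20.9%, 70.1% and 89.4% of these were called, with 1 false call (16701 genes tested). The simulation lacked the experiment effects of the real libraries, so these shares need not hold for them. The labels give each library an experiment. Libraries of the same experiment deviated together from their group means (median correlation over all genes 0.364 in 192 pairs, against -0.0886 in 963 pairs of different experiments), so experiment was used as a block in an alternative fit. Other alternatives were RLE scaling, no filter, DESeq2 1.42.0, the compared groups alone, and leaving out the 2 libraries of lowest total, each experiment or each library. Gene positions are GENCODE annotation of GRCm38. Correlations used log2 CPM with a pseudocount of 2. The ratio of Bckdk to Bckdha was tested by exact permutation.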

Additional observations from a re-analysis of the deposited data

Results flagged for a closer look

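In 90 groups of 5 or 6 libraries (10 genes in 9 groups), 6 held a library far from the others by Dixon's criterion, and chance flags about 1 in 20 groups. Bcat2 was 104.3 CPM in P day 4 replicate 5, with the others at 45.4 to 65.6. In P day 2 replicate 5, Hibadh was 115.3 CPM (others 53.2 to 68.0) and Ivd was 43.66 CPM (others 20.4 to 28.7). All 3 of these values are from experiment 5. Both low values are from experiment 4: Mccc1 at 13.45 CPM in PY day 4 replicate 4 (others 31.6 to 42.4) and Bckdha at 5.631 CPM in P day 0 replicate 3 (others 8.71 to 9.94). Mccc2 was 33.88 CPM in EV day 4 replicate 1, with the others at 26.0 to 27.9.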

How the results depend on the processing

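Of 120 results, 98 kept direction and side of the threshold with experiment as a block, 20 passed only with it and 2 turned. The block gave 7 called genes for EV day 4 against day 0 (2 without it), 8 for P day 2 against day 0 (5 without it) and 4 for the change of P vs EV from day 0 to day 4 (0 without it). That change also gave 4 with the compared groups alone, 2 with DESeq2 and 1 without the 2 libraries of lowest total. EV day 4 against day 0 gave 1 with no filter, 5 with the compared groups alone and 1 without experiment 2, 5 or 6. P day 2 against day 0 gave 3 with the compared groups alone, 2 without experiment 1 and 1 without experiment 5 or 6. PY day 2 against day 0 gave 4 without experiment 5. P vs EV on day 2 gave 0 and PY vs EV on day 2 gave 1 without experiment 5 or 6. Fewer samples enter the fits without an experiment, with the compared groups alone and without the 2 libraries of lowest total. The cause of these changes was not tested.

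With single libraries left out, 1370 of 1480 values kept their direction and their side of the threshold. Counts ran from 0 to 3 for P vs EV day 2, 1 to 5 for PY vs EV day 2, 1 to 2 for EV day 4 against day 0, 1 to 8 for P day 2 against day 0 and 0 to 1 for the change from day 0 to day 4 (Dbt without P day 4 replicate 6, Hibadh without P day 4 replicate 4). Log2 differences that turned were, for PY vs P day 2, Bcat2 (-0.21 to 0.39), Bckdha (-0.11 to 0.36), Bckdk (-0.12 to 0.15), Dbt (-0.0034 to 0.27), Ivd (-0.17 to 0.13) and Hibadh (-0.0651 to 0.34). For PY vs P day 4 they were Bcat2 (-0.0584 to 0.34), Bckdha (-0.31 to 0.16), Bckdk (-0.0642 to 0.11) and Ivd (-0.0086 to 0.23). Bckdk ran from -0.0738 to 0.18 for P vs EV day 2 and from -0.0365 to 0.18 for PY vs EV day 2. The Bckdk to Bckdha ratio ran from -0.0577 to 0.16 (P vs EV day 0), -0.12 to 0.13, -0.24 to 0.07 and -0.0336 to 0.31 (PY vs P days 0, 2 and 4).

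Under the other settings these small differences also turned, with the cause not tested. For PY vs P day 2, Bcat2 was -0.0009 without experiment 4 and -0.14 without experiment 6. Bckdha was -0.0023 with the block, -0.0401 without experiment 4 and -0.0435 without experiment 6. Bckdk was 0.0246 with the block, 0.0137 with RLE scaling, 0.0196 without the 2 libraries of lowest total, 0.0133 with DESeq2, and 0.0412, 0.0017 and 0.0856 without experiments 1, 2 and 5. Ivd was 0.0958 without the 2 libraries, 0.0022 with DESeq2, and 0.1031 and 0.1661 without experiments 3 and 5. The paired ratio was 0.0712. Bckdha was 0.0118 for PY vs P day 4 without experiment 4, Bckdk -0.0369 for P vs EV day 2 without experiment 5 and -0.054 for PY vs EV day 2 without experiment 6, and Hibadh -0.0328 for EV day 4 against day 0 without experiment 2. Depth limits Bckdha most, with 18 counts in the library of lowest total.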

Other observations

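Of the 5 measured genes of branched-chain amino acid transport and control, 2 were called lower on day 4 than on day 0 in EV, in P and in PY, where 14.9%, 18.6% and 17.8% of all genes were called lower. They were Slc7a5 and Slc3a2 in each. In EV Slc7a5, the light chain of the plasma membrane transporter of large neutral amino acids, was 185 ± 89.4 CPM (SD, n = 5) on day 0 and 63.0 ± 39.2 (n = 6) on day 4, 0.341-fold (edgeR adjusted p = 0.0035, lower in 5 of 5 experiments). Its heavy chain Slc3a2 was 442 ± 154 CPM on day 0 and 195 ± 19.8 on day 4, 0.441-fold (edgeR adjusted p = 2.58e-05, lower in 5 of 5 experiments, without overlap). In P they were 0.261-fold and 0.380-fold (edgeR adjusted p of 0.000256 and 9.65e-07), and in PY 0.278-fold and 0.379-fold (0.000287 and 3.2e-07). In EV Bcat1, the cytosolic transaminase, was 111 ± 77.4 CPM on day 0 and 31.9 ± 36.8 on day 4 and did not pass (edgeR adjusted p = 0.0503, and 1.35e-06 with the experiment block). In P and in PY Bcat1 was called lower on day 4 than on day 0, at -2.31 and -1.78 on the log2 scale. It was the only one of the 18 further genes of the pathway called lower there.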
